A study of Homo sapiens with 3 samples.

Results

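The clustered protocadherin genes on chromosome 5 were examined through the contacts of their promoters in hESC-CM, heart muscle cells grown from a human embryonic stem cell line. Members were the protein-coding genes whose symbols start with PCDHA, PCDHB or PCDHG, and the annotation held 53 of them, 15 alpha, 16 beta and 22 gamma genes. All lie on the plus strand between positions 140165721 and 140892544 of chromosome 5 in GRCh37. Promoter capture Hi-C (PCHi-C) crosslinks chromatin, cuts it with HindIII, ligates ends that lie close together and enriches the ligation products that hold a promoter. A promoter fragment was a HindIII fragment listed first in any of the calls that held an annotated transcript start of a member. There were 33 of them, among 19075 promoter fragments in all. Of the 53 genes, 47 (88.7%) had a start on a promoter fragment, against 77.0% of all protein-coding genes. The others were PCDHA12, PCDHA13, PCDHAC1, PCDHGA2, PCDHGA4 and PCDHGC5, and nothing is reported for them. Whether their fragments were captured and had no listed contact is not known here. Neighbouring genes often shared a fragment. So 10 of the 33 fragments stood for 2 to 4 genes, whose contacts cannot be told apart.

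The study sampled 1 group, hESC-CM made from the WA09 (H9) line with a commercial differentiation kit and enriched in lactate medium, in 3 biological replicates. All 3 came from the same line and carried no treatment that set one apart, so the comparisons below are between promoters, not between conditions. Contact scores hold no expression of cardiac markers, and the labelled cell type could not be checked in them. Each replicate listed 112473, 109731 and 110740 contacts with a CHiCAGO score of at least 5. CHiCAGO scores the excess of reads joining a pair of fragments over a background that falls with distance, so a pair that is not listed scored lower and is not shown to be apart.

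The clustered protocadherins are cell adhesion proteins best known from neurons, where each cell expresses its own small set of isoforms and uses it to tell its own processes from those of others. In the alpha and gamma groups every variable first exon has its own promoter and is spliced to constant exons that the group shares, whereas each beta gene is a single coding exon. The C-type genes, which lie next to the constant exons, are expressed more uniformly than the others. Most of the promoters carry a conserved element with a CGCT box, and promoter choice is known to involve the insulator protein CTCF, the ring complex cohesin and enhancers placed downstream of the alpha and of the gamma genes. No enhancer positions were taken from outside the files.

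Promoter sequences were taken from RefSeq (GRCh38.p14, 300 bases, from 250 before to 50 after the start), which matched 47 of the 53 genes with 52 sequences. Those not matched were PCDHA3, PCDHA13, PCDHB6, PCDHB11, PCDHGA12 and PCDHGC5. The letters CGCT occurred on the coding strand of 51 of the 52 sequences (98.1%), against 54.3% of 35116 promoters of the same length. On either strand the counts were again 51 of 52, and 24584 of 35116. PCDHA9 was the exception. The following 4 are shown because 3 of them had the most contacts of the alpha, beta and gamma groups and the other, PCDHB5, was called with more members than any other fragment. They read 5′ to 3′ on the plus strand, and capitals mark CGCT or its reverse complement AGCG, which overlap once in PCDHGB6.
PCDHA2 (chr5:140794602-140794901): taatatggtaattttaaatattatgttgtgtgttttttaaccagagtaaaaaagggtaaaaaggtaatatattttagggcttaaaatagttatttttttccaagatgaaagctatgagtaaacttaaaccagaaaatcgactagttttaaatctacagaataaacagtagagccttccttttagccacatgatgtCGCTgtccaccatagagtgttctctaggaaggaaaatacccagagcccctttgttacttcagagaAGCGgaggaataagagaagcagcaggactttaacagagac
PCDHB5 (chr5:141134956-141135255): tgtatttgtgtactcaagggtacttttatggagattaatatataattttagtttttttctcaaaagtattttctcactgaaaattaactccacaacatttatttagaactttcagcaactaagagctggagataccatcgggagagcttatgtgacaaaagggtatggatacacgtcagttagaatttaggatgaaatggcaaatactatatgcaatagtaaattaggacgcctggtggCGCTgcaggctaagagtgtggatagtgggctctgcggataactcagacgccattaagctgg
PCDHB16 (chr5:141182137-141182436): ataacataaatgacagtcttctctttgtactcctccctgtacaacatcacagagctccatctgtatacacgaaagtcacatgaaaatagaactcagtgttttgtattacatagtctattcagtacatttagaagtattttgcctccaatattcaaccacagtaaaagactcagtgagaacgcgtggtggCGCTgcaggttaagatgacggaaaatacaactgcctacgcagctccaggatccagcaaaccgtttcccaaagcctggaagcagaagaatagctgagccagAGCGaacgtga
PCDHGB6 (chr5:141407771-141408070): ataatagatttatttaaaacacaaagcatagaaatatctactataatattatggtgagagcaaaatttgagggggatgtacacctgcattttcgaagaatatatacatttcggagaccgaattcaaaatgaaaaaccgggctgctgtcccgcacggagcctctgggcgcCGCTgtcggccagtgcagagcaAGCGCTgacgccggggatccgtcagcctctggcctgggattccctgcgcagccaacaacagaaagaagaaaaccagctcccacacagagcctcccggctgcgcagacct

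A stricter 12-base CTCF core consensus, searched on both strands, was found in none of the 52 promoter sequences and in 0.470% of all promoters. On the whole HindIII fragments (GRCh37) it occurred 3 times in the members, each time on the plus strand and in the coding part of an alpha first exon. These matches began 563 bases after the start of PCDHA4, 456 after that of PCDHA7 and 570 after that of PCDHA9. None of the 13 beta or 12 gamma fragments held it. The interacting fragments between the alpha and beta genes held 2 matches and those in DIAPH1 held 3, all 5 on the minus strand. Of 55082 HindIII fragments of chromosome 5, 0.837% held a match, with 246 matches on the plus and 229 on the minus strand. The share was 9.09% of the 33 member fragments, 12.5% of 8 interacting fragments between alpha and beta, and 7.14% of 28 in DIAPH1. These shares rest on 3, 1 and 2 fragments, and they do not allow for fragment length. Per 100 kb there were 1.03 matches in member fragments, 7.60 between alpha and beta, 3.36 in DIAPH1 and 0.267 over chromosome 5. The 8 windows are shown because they lie in the fragments that the contacts below join. Each reads 5′ to 3′ on the strand of the match, with the core in capitals. Distal and proximal refer to distance from the PCDHB1 start.
PCDHA4 exon (chr5:140187195-140187274): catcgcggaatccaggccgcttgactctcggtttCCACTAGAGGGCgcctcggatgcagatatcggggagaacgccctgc
PCDHA7 exon (chr5:140214391-140214470): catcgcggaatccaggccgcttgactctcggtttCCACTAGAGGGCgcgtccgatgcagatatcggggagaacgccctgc
PCDHA9 exon (chr5:140228503-140228582): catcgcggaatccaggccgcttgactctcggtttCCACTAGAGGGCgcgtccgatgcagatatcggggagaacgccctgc
interval between alpha and beta, distal match (chr5:140419914-140419993): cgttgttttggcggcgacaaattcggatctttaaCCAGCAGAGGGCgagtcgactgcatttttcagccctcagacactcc
interval between alpha and beta, proximal match (chr5:140420923-140421002): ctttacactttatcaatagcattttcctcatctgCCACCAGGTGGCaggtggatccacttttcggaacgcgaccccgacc
DIAPH1 intron beside the gamma genes (chr5:140904427-140904506): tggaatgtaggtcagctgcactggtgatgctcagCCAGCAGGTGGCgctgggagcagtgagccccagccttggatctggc
DIAPH1-AS1 exon (chr5:140943928-140944007): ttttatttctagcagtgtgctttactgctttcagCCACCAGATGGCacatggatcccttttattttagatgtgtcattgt
DIAPH1 intron beyond DIAPH1-AS1 (chr5:140947231-140947310): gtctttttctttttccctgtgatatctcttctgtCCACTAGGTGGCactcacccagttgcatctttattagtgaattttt
The PCDHA7 and PCDHA9 windows shared 80 of 80 bases, and the PCDHA4 window shared 78 with each of them. A match is a run of letters, and binding of CTCF was not measured here. Sites that depart from the exact pattern are missed, so a sequence without a match is not shown to lack a CTCF site.

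The promoter fragments had 514 contacts in the union of the 3 replicates, counted as unordered pairs of fragments, out of 200587 in the series. Replicates 1, 2 and 3 held 326, 331 and 297 of them. Of the 514, 163 were found in every replicate, 114 in a pair of them and 237 in a single one. The share called in all 3 was 31.7% (95% Wilson interval 27.8% to 35.9%), and over the contacts of all promoter fragments it was 24.0%. At least 1 contact in all 3 replicates was seen for 31 of the 33 fragments (93.9%), against 51.9% of all promoter fragments. PCDHA1 and PCDHGC3 were without one. The interval covers counting error alone. The scores of the contacts shared by a pair of replicates had Spearman coefficients of 0.65, 0.64 and 0.69 over 210, 206 and 187 contacts, which share their fragments and are not independent.

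Nearly all of these contacts stayed close to the locus. Of the 514, 505 were on chromosome 5 and 25 of those spanned over 1 Mb, none of the 25 in more than 1 replicate. The median distance was 323 kb over the union and 296 kb for the contacts called in all 3, whose range was 15.7 to 783 kb. The other 9 joined another chromosome, and each of those was seen in 1 replicate. Within the locus itself lay the other end of 242 contacts (47.1%), and in replicates 1, 2 and 3 the share was 48.8%, 43.8% and 45.5%.

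The number of contacts differed widely among members. In the alpha group PCDHA2 had the most, with 14, 10 and 10 contacts in replicates 1, 2 and 3 and 20 in the union, and PCDHAC2, a C-type gene, had the fewest with 3, 2 and 1. In the beta group PCDHB16 had 34, 28 and 26 contacts and 38 in the union. PCDHB4 (6, 3 and 5) and PCDHB6 (4, 3 and 6) had 9 each in the union, the fewest of the beta genes. PCDHGB6 led the gamma group with 29, 31 and 37 contacts and 39 in the union, of which 25 were called in all 3 replicates. The C-type genes PCDHGC3 (1, 1 and 3) and PCDHGC4 (2, 2 and 2) had 5 and 3 in the union. All 3 C-type genes that could be measured were thus at the low end, between 3 and 5 contacts, where the median member fragment had 19. PCDHB2 and PCDHB3, which share a fragment, had 21, 18 and 25 contacts, and PCDHB5 had 25, 28 and 25. PCDHGA7 had 20, 18 and 21, in the same range as the fragment of PCDHGB4 and PCDHGA8 with 26, 20 and 17. The 22324-base fragment with the starts of PCDHGB2, PCDHGA5, PCDHGB3 and PCDHGA6 had 3, 6 and 3. Fragment length ran from 1481 to 22324 bases, and its Spearman coefficient with the number of contacts over the 33 fragments was 0.0030.

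**Figure D1:**
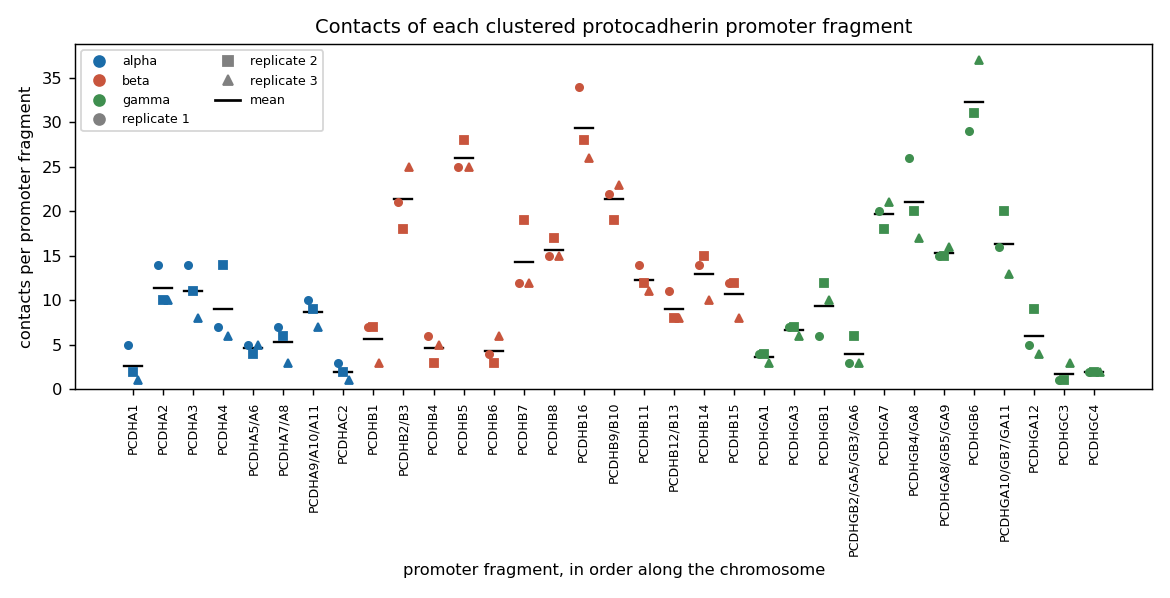
Contacts of each of the 33 promoter fragments (vertical axis, number of contacts with a score of at least 5) in order along the chromosome; points are the 3 replicates, lines their mean, colours the alpha, beta and gamma groups. PCDHB16 and PCDHGB6 stand highest, with 26 to 37 contacts in every replicate, and the C-type genes PCDHAC2, PCDHGC3 and PCDHGC4 are at 1 to 3.

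By group, an alpha fragment had a mean of 8.13, 7.25 and 5.13 contacts in replicates 1, 2 and 3. A beta fragment had 15.2, 14.5 and 13.6, and a gamma fragment 11.2, 12.1 and 11.3. The order beta, gamma, alpha held in each replicate and the replicate means of the groups did not overlap. Single fragments did overlap, with 4 to 20 contacts in the union for alpha, 9 to 38 for beta and 3 to 39 for gamma. The SDs and tests that follow measure spread between replicates, not among the fragments of a group. Beta exceeded alpha by 7.60 ± 0.78 contacts (SD, n = 3), gamma exceeded alpha by 4.67 ± 1.55, and beta exceeded gamma by 2.94 ± 0.91. The two-sided exact sign-flip permutation test gave p = 0.25 for each, the smallest that 3 replicates allow, and 0.25 after Benjamini-Hochberg adjustment over 27 such tests. On the merged calls beta minus gamma was -0.88 contacts, so the order of these groups turned. At scores of at least 10 gamma minus alpha was 0.51 ± 0.60, within the spread between replicates.

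Where the contacts led depended on the group. Alpha promoters led to the interval between the last alpha exon and PCDHB1, which took 30.8%, 37.9% and 36.6% of their contacts in replicates 1, 2 and 3. The beta genes took 26.2%, 22.4% and 39.0% of the alpha contacts, so in replicate 3 they took more than the interval. Counted by midpoint, the interval includes the promoter fragment of PCDHB1, a beta gene, which was called with 5 alpha fragments. Those contacts count for the interval and not for the beta genes, and in replicate 1 the larger share rests on this choice. No beta or gamma fragment had a contact whose other end lay in the interval. Beta promoters led to DIAPH1, the gene next to the gamma cluster, which encodes a formin that nucleates actin filaments. There the shares were 50.8%, 52.9% and 54.2% for beta, 28.4%, 27.6% and 25.9% for gamma and 16.9%, 15.5% and 9.76% for alpha promoters. Gamma promoters led most often into the beta genes, with 53.7%, 46.2% and 48.1%. The differences in the DIAPH1 share were 25.3 ± 2.95 percentage points for beta minus gamma, -38.6 ± 5.42 for alpha minus beta and -13.2 ± 2.57 for alpha minus gamma (SD, n = 3; exact sign-flip p = 0.25 each). Groups sit at different distances from these places, and distance was not held equal in this comparison.

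**Figure D2:**
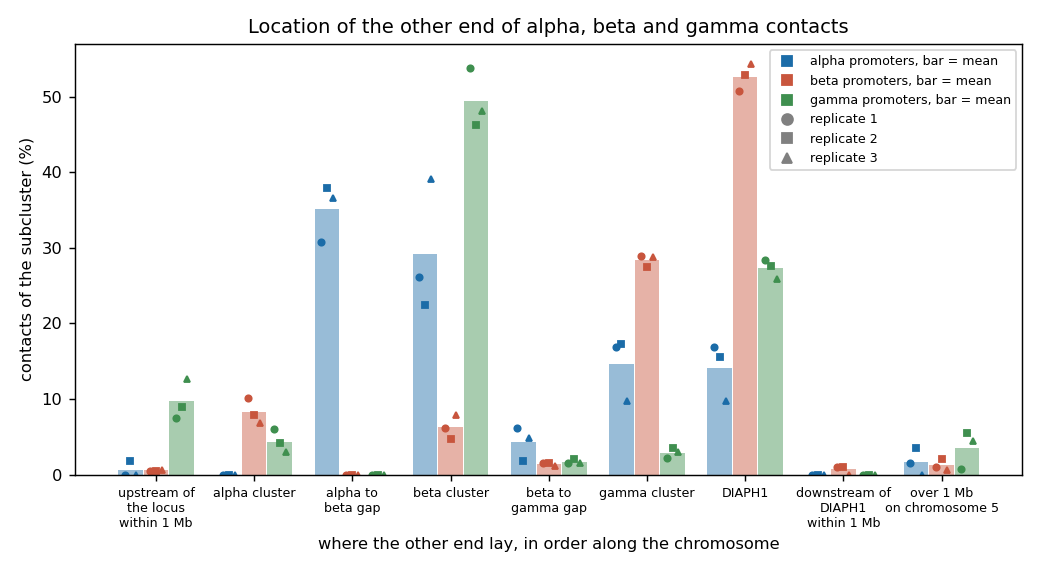
Share of the contacts of alpha, beta and gamma promoter fragments (vertical axis, percent of the contacts of that group in a replicate) by the place of the other end; bars are means and points the 3 replicates. The interval between alpha and beta, which by midpoint includes the PCDHB1 promoter fragment, holds the other ends of alpha contacts alone. DIAPH1 takes 50.8% to 54.2% of the beta contacts, and the beta genes take 46.2% to 53.7% of the gamma contacts.

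The interval between the alpha and beta genes took 28 alpha contacts with 8 fragments, 12 of them in all 3 replicates. Its highest scores were with chr5:140417501-140421335, which overlaps the noncoding gene ENSG00000288892 and holds both minus-strand core matches printed above. The promoter fragment of PCDHA9, PCDHA10 and PCDHA11 scored 18.01, 23.81 and 20.67 with it over 181 kb. The same promoters scored 14.92, 13.84 and 12.38 with the preceding fragment (chr5:140415217-140417500) and 15.36, 12.04 and 13.52 with the following one (chr5:140421336-140427755). Neither range overlapped that of the middle fragment, and the mean differences were 7.12 and 7.19. Each had an exact permutation p of 0.1, the smallest that 3 against 3 values allow. That test did not pair the values by replicate. The middle fragment was also picked for its high scores, so no conclusion is drawn from p. PCDHA4 scored 10.65, 12.16 and 8.53 with the middle fragment, PCDHA3 9.29, 8.8 and 8.69, and PCDHA7 with PCDHA8 7.52, 5.81 and 6.28. PCDHA2 and the fragment of PCDHA5 and PCDHA6 were listed in 1 replicate each, and PCDHA1 in none. PCDHAC2 was not called with that fragment and had its single contact in all 3 replicates with the preceding one, at 5.92, 6.1 and 5.69 over 69.8 kb. The last fragment of the interval, counted by its midpoint, holds the start of PCDHB1, and the PCDHA9, PCDHA10 and PCDHA11 fragment scored 8.82, 8.65 and 5.27 with it.

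DIAPH1 took 205 of the 514 member contacts (39.9%) and 89 of the 163 called in all 3 replicates (54.6%). They involved 28 DIAPH1 fragments and 29 of the 33 promoter fragments. Outside the members' own fragments, the fragment called with the most members was chr5:140935964-140942566, inside DIAPH1, with starts of an alternative DIAPH1 transcript and of the antisense noncoding gene DIAPH1-AS1. It was called with 19 member fragments, 11 of them beta, 7 gamma and 1 alpha, and 17 of these calls were made in all 3 replicates. Of all interacting fragments, 0.112% had as many promoter fragments, and this one was called with only 3 promoter fragments that were not members. It is itself a promoter fragment, so both ends of its member contacts were enriched, unlike those of the adjacent DIAPH1 fragments. The part of this in its calls and scores was not tested. PCDHB5 was not listed with either adjacent fragment, and PCDHB8 with the following one alone, at 6.24 in replicate 3. PCDHB16 and the fragment of PCDHB2 and PCDHB3 scored higher with the following one. Scores with chr5:140935964-140942566 were highest for PCDHB8 at 25.89, 37.22 and 35.29. PCDHB5 followed with 19.16, 34.23 and 23.97, then PCDHB16 with 22.12, 21.43 and 18.58, and the PCDHB9 and PCDHB10 fragment with 19.37, 18.95 and 17.24. PCDHB11 scored 19.84, 17.31 and 10.93, PCDHB2 with PCDHB3 15.13, 17.52 and 14.36, and PCDHB15 13.34, 17.17 and 15.01.

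Among the gamma genes PCDHGB6 scored highest with this fragment, at 11.05, 11.72 and 11.35, below the range of PCDHB15 and above that of PCDHB6 (10.58, 7.48 and 7.28). Mean scores over the 17 ran from 5.71 for PCDHGA12 to 32.8 for PCDHB8. Of the 16 neighbours in that order, which these same scores set, 14 overlapped in range. For the other 2, p was 0.1 (two-sided exact permutation test, unpaired, 0.33 after adjustment over the 20 score comparisons made here). Scores are set against the background of each promoter fragment, so an order between promoters is not an order of contact frequency. The promoter fragment of the full-length DIAPH1 transcripts, chr5:140997436-141001348, was called with 2 members and with none in all 3 replicates.

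**Figure D3:**
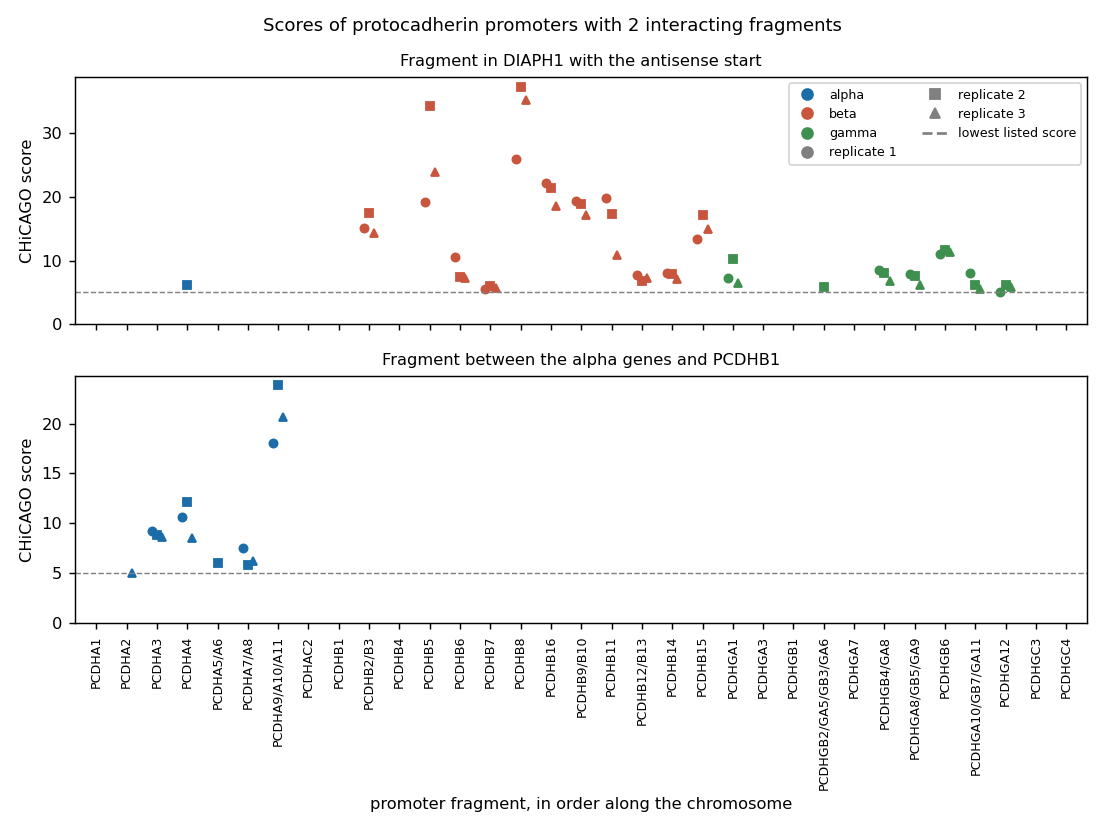
CHiCAGO scores of each promoter fragment with the DIAPH1 fragment that holds the DIAPH1-AS1 start (upper panel) and with the fragment between the alpha genes and PCDHB1 that scored highest (lower panel); points are replicates that listed the contact, and the dashed line is the lowest listed score of 5. The upper panel holds 11 beta, 7 gamma and 1 alpha fragment, and the lower panel holds alpha fragments alone.

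Scores along DIAPH1 had separate summits. PCDHB16 was called with 24 DIAPH1 fragments. Its scores peaked at chr5:140942567-140948718, next to the fragment above and holding a pair of the minus-strand core matches, with 23.17, 28.03 and 27.86. The fragment of PCDHB2 and PCDHB3 scored 22.18, 18.04 and 17.88 with the same place. PCDHB16 scores fell to 5.37, 6.04 and 6.38 at chr5:140916541-140919435, nearer the gamma genes, and stood at 9.13, 8.37 and 7.58 at chr5:140901785-140902975. PCDHGB6, called with 19 DIAPH1 fragments, peaked at chr5:140900109-140901784 with 13.38, 12.74 and 15. It scored 12.12, 10.53 and 15.6 at chr5:140902976-140908147, which holds the core match nearest to the gamma genes. PCDHGB6 was listed in replicate 3 alone at chr5:140919436-140926364, with 5.23, before its second summit at the DIAPH1-AS1 start. In both promoters the dip between the summits was below every replicate value at either summit. For PCDHGB6 the second summit lies on a promoter fragment, enriched at both ends, and the dip does not. The part of this was not tested.

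The small fragment chr5:140957311-140957971, over an exon of DIAPH1, was called with 17 members, and 5 of these were alpha fragments. PCDHA2 scored 5.3, 5.47 and 6.17 with it, PCDHA4 5.86, 6.71 and 6.07, and the fragment of PCDHA5 and PCDHA6 6.92, 5.72 and 7.03. These were the 3 alpha contacts with DIAPH1 called in all 3 replicates, out of 15. The fragments chr5:140951002-140952624 and chr5:140942567-140948718 were called with 15 and 14 members. A neighbouring fragment, chr5:140931647-140935963, was also called with 14, and fewer of its calls, 5 against 8, were made in every replicate.

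Members also contacted one another. Of the 514 contacts, 95 (18.5%) joined a pair of member fragments, and 34 of these were called in all 3 replicates. In replicates 1, 2 and 3 the share was 21.5%, 18.4% and 18.9%. Beta and gamma fragments were joined most often, with 52 of 156 possible pairs called (33.3%) and 22 in all 3 replicates. Alpha and beta followed with 21 of 104 (20.2%) and alpha and gamma with 13 of 96 (13.5%), none of the latter in all 3. Within a group, 7 of 78 beta pairs, 2 of 66 gamma pairs and 0 of 28 alpha pairs were called. Pairs within a group lie closer together, where the background that CHiCAGO subtracts is higher, and its part in this was not tested.

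PCDHB5 stood apart among these pairs. Its fragment, chr5:140510272-140526351, was called with 23 other members, 16 of them in all 3 replicates, and so took part in 23 of the 95 contacts. The partners were 6 alpha, 7 beta and 10 gamma fragments. PCDHB8 came next with 13 member partners, 5 alpha and 8 gamma. All 19 contacts of PCDHB5 called in all 3 replicates, and all 7 of PCDHB8, were with promoter fragments. Fragments outside the promoter set were called with PCDHB5 in 1 replicate each. Whether enrichment of both ends played a part was not tested. With PCDHGA7, PCDHB5 scored 12.74, 15.39 and 19.77 over 246 kb, and PCDHB8 scored 15.39, 15.2 and 15.62 over 206 kb. PCDHB5 scored 8.33, 23.23 and 13.08 with PCDHGB1 and 11.46, 14.88 and 15.48 with the fragment of PCDHGB4 and PCDHGA8. With PCDHA2 it scored 12.38, 16.32 and 5.21, and with PCDHA3 11.19, 15.11 and 6.69. These values spread over a wide range between replicates, unlike those of PCDHB8 and PCDHGA7. PCDHGC4 had its single contact in all 3 replicates with PCDHB5, at 5.02, 6.13 and 6.71. Of the 22 beta to gamma pairs called in all 3 replicates, 8 held PCDHB5 and 14 did not.

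Related sequence was measured beside these pairs, since protocadherin exons resemble each other. Of the possible pairs of member fragments, 110 aligned over at least 500 bases, and 12 of them were called as contacts. A single pair reached 95% identity, PCDHB8 with the fragment of PCDHB12 and PCDHB13 at 96.9%, and it was not called. Its alignment ran over 1475 bases, and the PCDHB8 fragment is 1481 bases long. The missing call does not show where reads of either fragment were placed. Every within-group contact was among the aligned pairs. All 7 called beta pairs held PCDHB5 and aligned at 82.2% to 93.1%, and both called gamma pairs held the fragment of PCDHGB2, PCDHGA5, PCDHGB3 and PCDHGA6 and aligned at 78.2% to 78.5%. Of the pairs within a group, 58 of 78 beta, 23 of 66 gamma and 21 of 28 alpha pairs aligned. No aligned alpha pair was called, and no pair within a group that did not align was called. Most aligned pairs were not called, but this holds for possible member pairs at large. In no combination of groups were more than 33.3% of the possible pairs called. The part of misplaced reads in these contacts was not tested.

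Direction followed position in the locus. Of the same-chromosome contacts of alpha fragments in the union, 95 led downstream and 1 upstream. For beta fragments 246 led downstream and 36 upstream, and for gamma fragments 64 and 158. Over all members, 68.4% ± 0.84 of contacts led downstream, against 51.2% ± 0.12 for other promoter fragments with starts on 1 strand. The difference was 17.2 ± 0.91 percentage points (SD, n = 3; exact sign-flip p = 0.25). Fragments upstream of the locus, within 1 Mb, had 26 contacts with gamma, 3 with beta and 1 with alpha fragments. PCDHGA3, PCDHGA7 and the fragment of PCDHGB4 and PCDHGA8 held the 4 that were called in every replicate, with scores between 5.01 and 6.63.

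**Figure D4:**
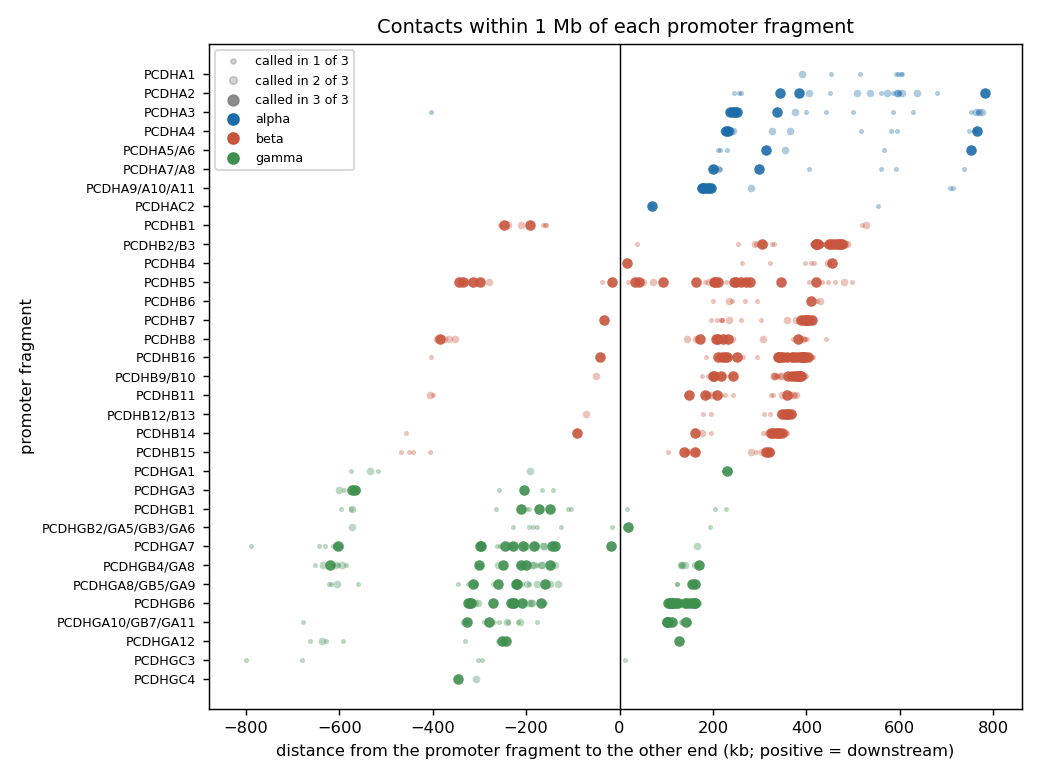
Contacts within 1 Mb of each promoter fragment by distance from the fragment to the other end (horizontal axis, kb, positive downstream); large dark points were called in 3 of 3 replicates, small pale points in fewer. Oblique runs of points are fixed places called from successive promoters, and alpha fragments have 1 contact to the left of 0 where gamma fragments have most of theirs there.

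Few neighbouring promoters took part. Of 39 protein-coding genes that are not members and start within 1 Mb of the locus, 38 had a promoter fragment, 8 had a contact with a member in some replicate and 2 had one in all 3. These were DIAPH1, with 17 member fragments, and SLC25A2, a mitochondrial carrier between the beta and gamma genes, with PCDHB5 (5.12, 7.59 and 5.55). AC005609.1 and ENSG00000279983 start on members' own fragments, and the contacts of those fragments were not counted for them. Among the 8 genes, FCHSD1, HDAC3 and RELL2 share a fragment, as do ANKHD1 and ANKHD1-EIF4EBP3, so their contacts cannot be told apart. The fragment with the pseudogene PCDHB17P was called in all 3 replicates with PCDHGA7, at 5.22, 6.6 and 6.04. The promoter fragment just after the PCDHGA2 start, chr5:140718378-140722399, held no annotated start and scored 12.31, 11.49 and 7.98 with PCDHB5.

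Beside other promoters, the members had more and shorter contacts. A member fragment had 12, 11.9 and 10.7 contacts in replicates 1, 2 and 3, and any other promoter fragment 6.48, 6.33 and 6.39, a difference of 5.12 ± 0.71 (SD, n = 3; exact sign-flip p = 0.25). This difference was 1.48 at scores of at least 7, 0.34 at scores of at least 10, 1.71 without contacts between promoter fragments and 10.9 on the merged calls. The median distance was 310, 313 and 314 kb against 543, 550 and 582 kb, a difference of -246 ± 19.6 kb. With contacts up to 1 Mb alone the difference was -35.5 kb, where 93.4% of member contacts and 55.6% of the others lay within that distance. On the merged calls it was -138 kb. Contacts joining a pair of promoter fragments of any gene made up 30.1%, 27.2% and 26.9% of the member contacts and 10.0%, 10.1% and 10.2% of the rest. Against the 36 fragments of the HOX clusters, which also hold tandem developmental genes, members differed by -5.21 ± 0.88 contacts per fragment, by -137 ± 2.50 kb in median distance and by 16.2 ± 2.59 percentage points in promoter to promoter contacts. The 231 olfactory receptor fragments, whose genes likewise form tandem arrays and are chosen singly by neurons, had a median distance of 2848, 2866 and 2903 kb. Of their contacts 14.7% were called in all 3 replicates. Zinc finger genes of chromosome 19 had 48.3% ± 1.64 promoter to promoter contacts, above the members in each replicate, and 8.69% of their contacts were called in all 3. Each exact sign-flip test of these differences gave p = 0.25.

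**Figure D5:**
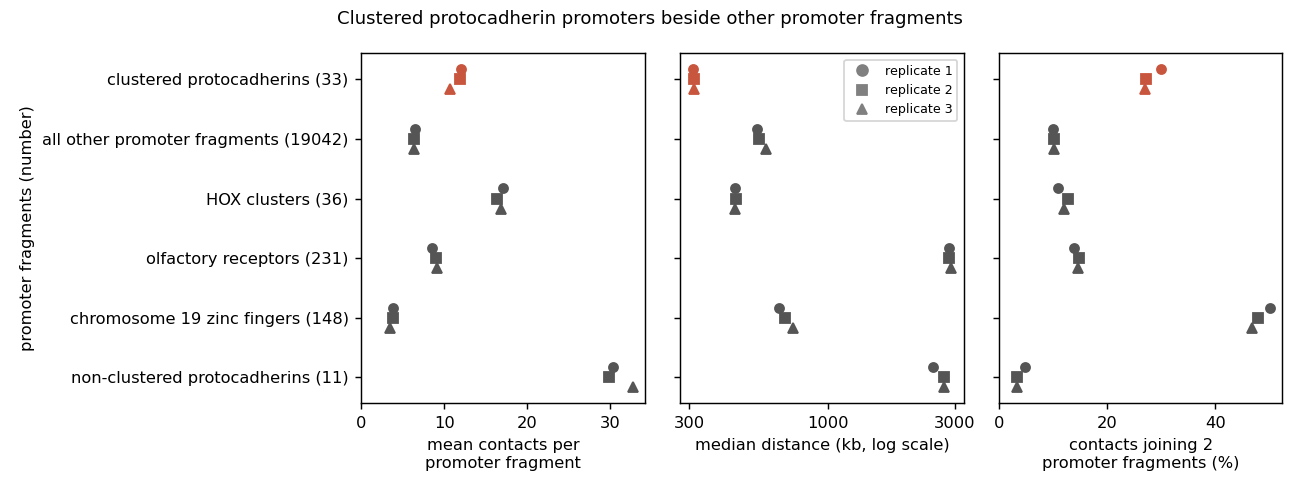
Clustered protocadherin promoter fragments and 5 other sets (number of fragments in brackets) by mean contacts per fragment, median distance of same-chromosome contacts (kb, log axis) and percent of contacts joining 2 promoter fragments; points are the 3 replicates. Members have the shortest median distance of the sets shown, 310 to 314 kb.

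The protocadherins outside the cluster had more contacts per fragment in the mean, with a difference of -19.5 ± 2.22 for members minus these genes. That SD is between replicates and not among fragments. Of 12 such genes 10 had a promoter fragment, with 1 to 156 contacts in the union, led by PCDH10 (89, 91 and 110) and PCDH9 (87, 90 and 107). PCDH19 followed with 56, 45 and 48, whereas PCDH1 had 9, 10 and 6 and PCDH18 had 3, 3 and 5. The median over the 11 fragments was 28 contacts in the union, against 19 for members. Over the pooled contacts of these genes, which weight each gene by its number of contacts, the median distance was 2495, 2736 and 2742 kb. Of the pooled contacts, 4.79%, 3.34% and 3.33% joined a pair of promoter fragments. Of the 14 genes for CTCF, cohesin and other known regulators of the cluster, 13 had a promoter fragment. Of these genes, 11 had a contact in all 3 replicates, counted over up to 2 fragments per gene. Among single promoter fragments of all genes, 51.9% had one, which is not the same unit. SMCHD1 (52, 52 and 40) and SMC3 (44, 35 and 48) were highest in the list. The median was 18 contacts in the union per gene of the list and 19 per fragment over its 16 fragments. Over all promoter fragments outside the cluster it was 6.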

How the data were processed

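PCHi-C calls of 3 biological replicates were used as deposited. Per the labels and the study's methods, the authors mapped reads to GRCh37 with HiCUP and scored pairs of HindIII fragments with CHiCAGO at default settings. The deposited score of each pair is at least 5 and carries no read count, so depth per replicate is not known here, and a missing pair may have scored below 5. Of 7888 chromosome 5 fragments in the files, 7888 start at a HindIII site of GRCh37.

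Transcript starts came from GENCODE release 44 lifted to GRCh37. A contact was an unordered pair of fragments with the same coordinates in each replicate, and distance ran between midpoints. The authors' merged calls served as an alternative. Means per fragment are over all 33 member fragments, zeros included, also under the alternatives (34 where fragments within 1 kb were added). Captured fragments that no replicate listed first are left out of the members and of all other promoter fragments. Means, medians and shares per fragment are therefore over fragments with a listed contact in some replicate. Differences were tested with the two-sided exact sign-flip permutation test over 3 replicates, and scores with the exact permutation test. The latter did not pair values by replicate. Alternatives were scores of at least 7 and 10, each replicate left out, merged calls, ordered pairs, starts of protein_coding transcripts, fragments within 1 kb of a start, no pairs of promoter fragments, and contacts up to 1 Mb. Counting and tests were checked on simulated data.

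Members and lists were chosen with earlier results of these data known. Named were all genes with the most or fewest contacts in a group, C-type genes, the 12 contacts with the highest mean score in all 3 replicates, the 5 most shared fragments, and up to 15 other promoters called in all 3. Other genes and fragments, and the values set beside them, were singled out after their values were seen. Python 3.11.15, numpy 2.4.6, scipy 1.17.1, pandas 2.3.3, matplotlib 3.10.9 and minimap2 2.31-r1302 were used.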

Additional observations from a re-analysis of the deposited data

Results flagged for a closer look

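The merged calls listed 554 contacts of the member fragments, and 150 of them were listed in no single replicate. They were set apart because the values above rest on the single replicates, and the merged calls entered as an alternative alone. Their median score was 5.65, the highest was 7.97, and their median distance was 215 kb. All 150 spanned less than 1 Mb. Of the 514 contacts of the union, 404 were on the merged calls, among them each of the 163 called in all 3 replicates.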

How the results depend on the processing

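With 3 replicates the sign-flip tests cannot go below p = 0.25 (exact) and the score comparisons not below 0.1, so directions and sizes were compared. The same 33 member fragments were averaged under each score limit, replicate set and set of calls, with 0 for a fragment left without a contact, and 34 where fragments near a start were added. The number of contacts, 514, was 190 at scores of at least 7 and 62 at scores of at least 10. On the merged calls beta minus gamma turned from 2.94 to -0.88 contacts per fragment, and the cause was not tested. It was 1.06 at scores of at least 10 and 1.29 without contacts between promoter fragments. The excess over other promoters, 5.12, was 1.48 at 7, 0.34 at 10, 1.71 without contacts between promoter fragments and 10.9 on the merged calls. Beta minus alpha, 7.60, was 4.57 at 7, 1.57 at 10 and 4.49 without contacts between promoter fragments. Gamma minus alpha, 4.67, was 1.69 at 7, 0.51 at 10 and 10.8 on the merged calls. The difference in median distance, -246 kb, was -35.5 kb within 1 Mb and -138 kb on the merged calls. Fewer contacts pass a higher score by construction.

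The share called in all replicates was 38.7% at scores of at least 10, 28.5% without contacts between promoter fragments, and 42.4% to 49.4% when each replicate was left out and the other 2 had to call a contact. It has no value on the merged calls. The share joining member fragments was 22.6% at scores of at least 7, 22.6% at 10 and 15.9% on the merged calls. The share with the other end inside the locus was 38.9% at 7, 35.5% at 10, 52.3% on the merged calls, 35.6% without contacts between promoter fragments and 50.4% within 1 Mb. Apart from beta minus gamma on the merged calls, the differences kept their sign under the alternatives run.

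Precision is limited by 1 cell line, 3 replicates and the listing threshold of 5. Each contact rests on a score without its read count, shared fragments join several genes, and 6 genes had no promoter fragment. Contacts are averages over a cell population and do not show which promoters touch the same place in one cell.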
